A study of Mus musculus with 6 samples.

Results

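The genes described here are 10 genes of smooth muscle contraction and of pericytes: Mylk, Myl9, Myh11, Acta2, Cnn1, Tpm1, Tpm2, Des, Pdgfrb and Rgs5. They were chosen by name, and every probe set whose platform annotation gives exactly 1 of these symbols was kept, which gave 26 probe sets of the 45037 tested and 10 of the 18193 genes with a single-symbol probe set. Mylk and Acta2 were singled out with the Tead1KO and Flox values of these arrays in view, so the differences of the members describe these 6 arrays. Which of them were called in the fit over all probe sets is given as a count beside the share of all probe sets, and nothing is read from it. Values are log2 probe set signals, and every difference is Tead1KO minus Flox on that scale. Because probe sets differ in how well they bind their target, levels are compared within a probe set and not between genes.

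The arrays held RNA of hand-picked islets of Langerhans from male C57Bl6 mice, 12 weeks old. In the Tead1KO group (3 arrays) Tead1, a DNA-binding partner of the coactivators Yap1 and Wwtr1, was knocked out in beta cells only. The Flox mice (3 arrays) were the controls. A Cre driver is not named in the labels, which also do not tie an array to 1 animal, so the spread between arrays of a group may be technical. Other islet cells, among them pericytes, keep Tead1 in the Tead1KO mice, and each value is a mixture over all cells of the preparation.

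In smooth muscle and in pericytes, myosin light chain kinase phosphorylates the regulatory light chain of myosin, and the myosin then pulls on thin filaments built of actin, tropomyosin and calponin. Pericytes are contractile cells wrapped around capillaries, and in islets they set capillary width and blood flow. Serum response factor and its myocardin-family coactivators switch many of these genes on through a sequence called the CArG box, and TEAD factors can bind the MCAT sequence CATTCC, which several muscle genes carry.

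The arrays were of unequal quality and purity. Tead1KO replicate 3 stood apart, with an interquartile range of 2.65 over all probe sets (2.99 and 3.32 in the other Tead1KO arrays, 3.11 to 3.19 in the Flox arrays) and the highest hybridization controls (13.23, against 10.6 to 12.09). It was the lowest of the 6 arrays for 7 of the 15 member probe sets brighter than the median probe set (5.24), where 46.5% of all such probe sets had it lowest, and the highest for 5 of the 11 at or below the median (49.1% of all). Exocrine RNA was abundant and uneven: the mean of 9 acinar markers was 12.25, 14.25 and 13.46 in Tead1KO replicates 1 to 3 and 12.14, 14.04 and 14.30 in Flox replicates 1 to 3. Islet endocrine markers (hormones, Slc2a2 and Chga) were near the top of the scale in all arrays, with a mean of 14.31 to 14.59 in Tead1KO and 14.54 to 14.64 in Flox arrays over 7 endocrine markers. Tead1 itself had a pair of probe sets, with differences of -0.49 and -0.21, which had exact two-sided permutation p-values of 0.4 and 0.7 (0.1 is the smallest possible), and whether they lie in the deleted part is not stated in the labels. In both the groups overlapped. The brighter one read 6.72, 7.49 and 5.95 in Tead1KO and 7.22, 6.99 and 7.40 in Flox arrays, with Tead1KO replicate 2 the highest of the 6 arrays and replicate 3 the lowest.

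The largest differences among the members were those of 2 Mylk probe sets, and Mylk was singled out with these values in view. Of the 26 member probe sets, 2 had a limma adjusted p under 0.05 over all 45037 probe sets, both of Mylk and both higher in Tead1KO, while 0.180% of all probe sets were called (59 higher, 0.131%, and 22 lower, 0.0488%). The members did not move as 1 group: 12 probe sets lay above 0 and 14 below, with a median of -0.06 beside 0.03 over all probe sets. The 23 probe sets of the other 9 genes lay between -0.99 and 0.32.

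**Figure D1:**
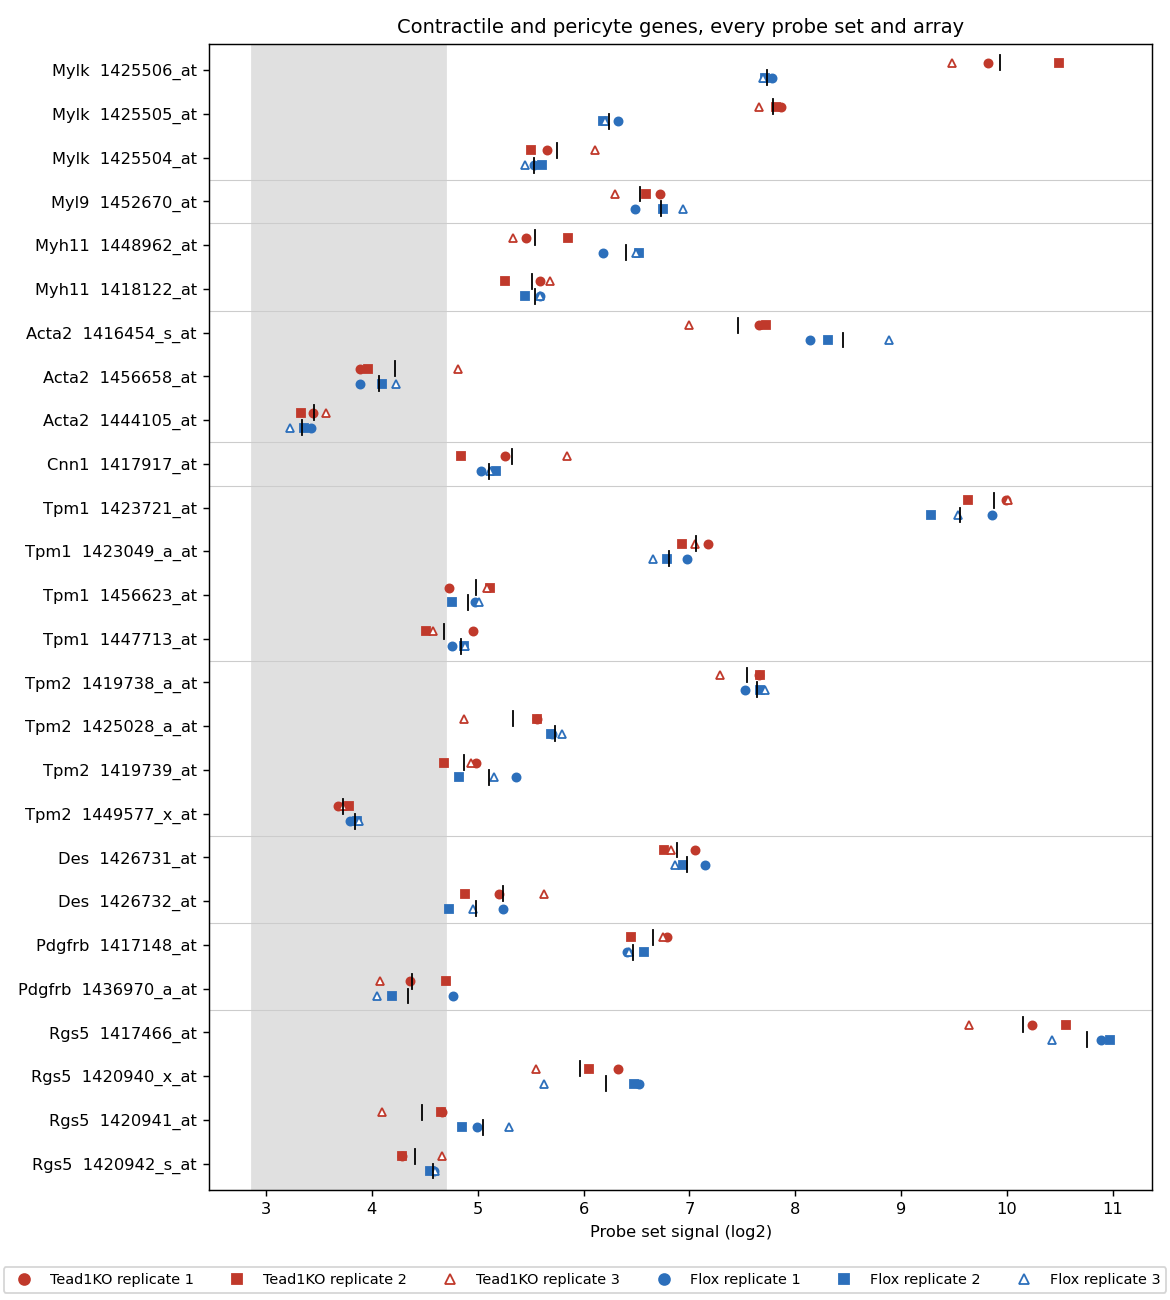
Log2 signal (x axis) of each member probe set (rows) on each array, Tead1KO in red above Flox in blue, symbol by replicate, black ticks at group means, grey band for background (2.87 to 4.70, bacterial control probe sets that were not spiked in). The first 2 Mylk rows lie apart with Tead1KO higher, the brightest Acta2 row and 1 Myh11 row with Tead1KO lower, and most other rows overlap.

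Mylk encodes myosin light chain kinase, the enzyme that starts contraction, and its locus on chromosome 16 (chr16:34745199-35002436, GRCm38.p6) makes a long kinase, a short kinase and a small non-kinase protein called telokin. Its brightest probe set (1425506_at) read 9.82, 10.49 and 9.48 in the Tead1KO arrays, in the order of their replicate numbers, and 7.78, 7.71 and 7.70 in the Flox arrays. Every Tead1KO array was above every Flox array, and the Flox arrays were close together. The group means were 9.93 ± 0.51 in Tead1KO and 7.73 ± 0.04 in Flox (SD, n = 3 each), a difference of 2.20 (SE 0.25) or 4.59-fold.

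The next Mylk probe set (1425505_at) read 7.87, 7.82 and 7.66 in Tead1KO and 6.33, 6.18 and 6.20 in Flox arrays. Here too the groups did not overlap, and the arrays of each group were close together, with means of 7.79 ± 0.11 in Tead1KO and 6.24 ± 0.08 in Flox (SD, n = 3 each), a difference of 1.55 (SE 0.16) or 2.92-fold. The dimmest Mylk probe set (1425504_at) read 5.65, 5.50 and 6.11 in Tead1KO and 5.53, 5.61 and 5.45 in Flox arrays, groups that overlapped, with a difference of 0.22 (SE 0.19). The annotation credits these 3 probe sets to the same expressed sequence tag. No source used here says which of the Mylk transcripts each one reads.

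The size of the Mylk difference held with Tead1KO replicate 3 left out (2.42 and 1.61 for the brighter pair) and lay between 1.92 and 2.42 and between 1.50 and 1.61 with any 1 array left out. Its call did not hold as widely. Without Tead1KO replicate 1, or without Flox replicate 1, 2 or 3, neither Mylk probe set was called, and over all probe sets 4 (0.00888%), 9 (0.0200%), 11 (0.0244%) and 11 (0.0244%) were. With median centring the brightest Mylk probe set (2.14) was not called and the next (1.48) was. With the acinar marker level as a covariate the differences were 2.22 and 1.54, and neither was called (0.0533% of all probe sets were).

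The substrate of the kinase did not follow it. Myl9, the regulatory light chain of myosin that the kinase phosphorylates, read 6.72, 6.59 and 6.30 in Tead1KO and 6.49, 6.75 and 6.94 in Flox arrays. The groups overlapped, with a difference of -0.19 (SE 0.19).

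Myh11, the smooth muscle myosin heavy chain and a marker of mature smooth muscle cells, was read by 2 probe sets that disagreed. The first (1448962_at) read 5.46, 5.85 and 5.33 in Tead1KO and 6.18, 6.52 and 6.50 in Flox arrays, so that every Tead1KO array lay below every Flox array. The means were 5.54 ± 0.27 in Tead1KO and 6.40 ± 0.19 in Flox (SD, n = 3 each), a difference of -0.86 (SE 0.19). The second (1418122_at) read 5.59, 5.26 and 5.68 in Tead1KO and 5.59, 5.45 and 5.59 in Flox arrays, with overlapping groups and a difference of -0.03 (SE 0.17). Both are credited to 1 cDNA clone in the annotation.

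Acta2 encodes smooth muscle alpha-actin, the actin of contractile pericytes, smooth muscle cells and activated stellate cells. Its brightest probe set (1416454_s_at) read 7.66, 7.72 and 7.00 in the Tead1KO arrays and 8.14, 8.31 and 8.89 in the Flox arrays. All Tead1KO arrays were below all Flox arrays, with the lowest value in Tead1KO replicate 3 and the highest in Flox replicate 3. The means were 7.46 ± 0.40 in Tead1KO and 8.45 ± 0.39 in Flox (SD, n = 3 each), a difference of -0.99 (SE 0.27). It was -0.76 without Tead1KO replicate 3, and in bulk islets fewer cells that make a transcript and less of it per cell cannot be told apart. The suffix of this probe set marks probes shared by more than 1 transcript, so near-identical actins may contribute to its signal. The other Acta2 probe sets (differences 0.15 and 0.11) lay within background in both groups, that is within the 2.87 to 4.70 spanned by bacterial control probe sets that were not spiked in, where a change could hardly be seen.

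Acta2 and Mylk therefore differed in opposite directions, by -0.99 and 2.20 at their brightest probe sets. Among all probe sets tested, 0.0711% had a difference above that of the Mylk probe set and 0.513% had one below that of the Acta2 probe set. Non-overlap by itself was seen in 10.5% of all probe sets. Tead1KO arrays were all above the Flox arrays in 2 of the 26 member probe sets (5.36% of all probe sets) and all below in 5 (5.16% of all). Besides the brightest Acta2 and the first Myh11 probe set, the 5 were a pair of Tpm2 probe sets and 1 of Rgs5. By limma 6 of the 26 had an unadjusted p under 0.05, beside 5.18% of all. Nothing is read from these counts, since Mylk and Acta2 were singled out with these values in view.

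**Figure D2:**
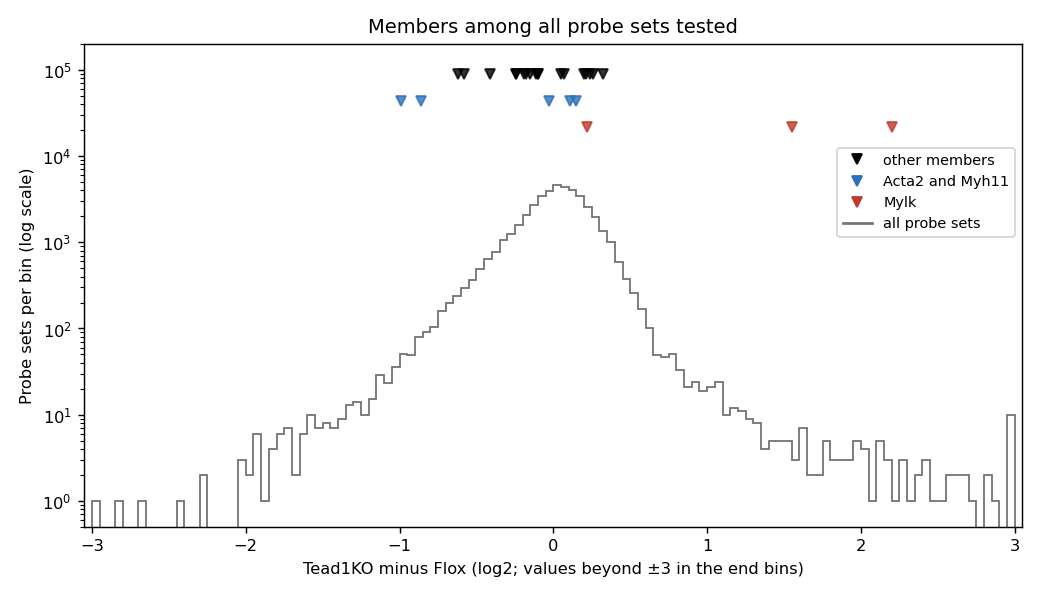
Number of probe sets (y axis, log scale) by difference, Tead1KO minus Flox (x axis, log2), with each member probe set as a triangle, Mylk in red, Acta2 and Myh11 in blue and the other members in black (triangle height has no meaning). A pair of Mylk probe sets lies far to the right (1.55 and 2.20), 1 of Acta2 and 1 of Myh11 in the left flank (-0.99 and -0.86), and the others near the bulk.

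The stretches upstream of the starts of Mylk and Acta2 are shown because both hold 1 MCAT match, CATTCC or its reverse complement GGAATG, although the values of these genes differed in opposite directions. The sequences are those of RefSeq on GRCm38.p6, 250 bases before the start, 5′ to 3′ on the strand of the gene, with the match in capitals. The Mylk window is chr16:34784700-34784949 on the plus strand and lies within the span of the gene, ahead of an internal start. The Acta2 window is chr19:34255374-34255623 on the minus strand, and most of it, the match included, also lies within the span of the gene (chr19:34240336-34255585).
Mylk: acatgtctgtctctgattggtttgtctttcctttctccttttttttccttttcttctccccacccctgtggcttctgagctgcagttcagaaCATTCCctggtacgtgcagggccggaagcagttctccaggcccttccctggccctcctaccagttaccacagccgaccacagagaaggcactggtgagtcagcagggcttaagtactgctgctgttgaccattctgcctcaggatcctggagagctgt
Acta2: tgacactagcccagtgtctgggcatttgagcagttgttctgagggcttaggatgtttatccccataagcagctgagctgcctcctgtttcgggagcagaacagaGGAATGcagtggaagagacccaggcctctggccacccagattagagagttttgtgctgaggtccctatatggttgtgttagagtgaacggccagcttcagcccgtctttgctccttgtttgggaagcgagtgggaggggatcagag

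The match begins 158 bases before the start in Mylk and 146 bases before it in Acta2. Of the 8 members with a window in the RefSeq table (all but Myh11 and Pdgfrb), 3 held an MCAT match on either strand, the third being Tpm1 at 56 bases, while 12.6% of 27025 windows of this length, 1 per gene, held one. A strict CArG box (CCWWWWWWGG, where W is A or T) was found in 1 of the 8, Myl9, and in 1.4% of all windows. The Acta2 window holds ccctatatgg and ccttgtttgg, each 1 letter away from this pattern. Such near matches were not counted, so a count of 0 does not mean that a window lacks a CArG-like box. None of the 8 windows held both an MCAT and a strict CArG match, so no counted matches overlapped. A match is a run of letters and not a binding site, and these arrays did not measure binding.

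The other thin filament genes differed little. Tpm1, a tropomyosin that lies along actin in muscle and in many other cells, had 4 probe sets, of which the brightest (1423721_at) read 9.99, 9.63 and 10.01 in Tead1KO and 9.86, 9.28 and 9.54 in Flox arrays. The groups overlapped, with means of 9.88 ± 0.21 in Tead1KO and 9.56 ± 0.30 in Flox (SD, n = 3 each) and a difference of 0.32 (SE 0.20). The other Tpm1 probe sets differed by 0.24, 0.07 and -0.15, also with overlapping groups.

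Tpm2, the tropomyosin typical of smooth and slow muscle, lay on the other side of 0 in all 4 of its probe sets, by -0.10, -0.41, -0.24 and -0.11. Its brightest probe set (1419738_a_at) read 7.66, 7.67 and 7.29 in Tead1KO and 7.53, 7.67 and 7.71 in Flox arrays, so only Tead1KO replicate 3 lay outside the range of the Flox arrays. Without that array the difference was 0.03, and it was 0.01 with quantile normalization. The probe set with the difference of -0.41 (1425028_a_at) read 5.56, 5.56 and 4.87 in Tead1KO and 5.70, 5.69 and 5.80 in Flox arrays, and without Tead1KO replicate 3 its difference was -0.17. A dim Tpm2 probe set with non-overlapping arrays (-0.11) lay within background in both groups.

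Cnn1, the smooth muscle calponin that binds actin and slows myosin, read 5.26, 4.84 and 5.84 in Tead1KO and 5.03, 5.17 and 5.12 in Flox arrays. Tead1KO arrays lay on both sides of the narrow Flox range, and the difference of 0.21 (SE 0.24) was -0.05 without Tead1KO replicate 3. Des encodes desmin, the intermediate filament of muscle cells and of many pericytes. Its brighter probe set read 7.05, 6.76 and 6.83 in Tead1KO and 7.15, 6.94 and 6.86 in Flox arrays, a difference of -0.10 (SE 0.17), and its dimmer probe set differed by 0.26 (SE 0.23). In both the groups overlapped.

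Of the pericyte genes, Pdgfrb did not follow Acta2. It encodes the receptor through which platelet-derived growth factor from endothelial cells recruits pericytes, and its brighter probe set (1417148_at) read 6.79, 6.45 and 6.75 in Tead1KO and 6.41, 6.57 and 6.43 in Flox arrays. The groups overlapped, with a difference of 0.20 (SE 0.17), and the dimmer probe set (0.05) lay within background in both groups.

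Rgs5, a brake on G protein signals and a marker of pericytes, lay lower in Tead1KO in all 4 of its probe sets, by -0.62, -0.24, -0.58 and -0.18. Its brightest probe set (1417466_at) read 10.24, 10.56 and 9.64 in Tead1KO and 10.89, 10.97 and 10.43 in Flox arrays. The highest Tead1KO array lay above the lowest Flox array, and the means were 10.15 ± 0.46 in Tead1KO and 10.76 ± 0.29 in Flox (SD, n = 3 each, SE of the difference 0.26). Without Tead1KO replicate 3 the 4 differences were -0.37, -0.02, -0.39 and -0.30. The probe set with the difference of -0.58 had non-overlapping arrays, 4.66, 4.65 and 4.10 in Tead1KO and 4.99, 4.85 and 5.30 in Flox, but its Tead1KO mean was within background. The probe set with the difference of -0.18 lay within background in both groups.

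**Figure D3:**
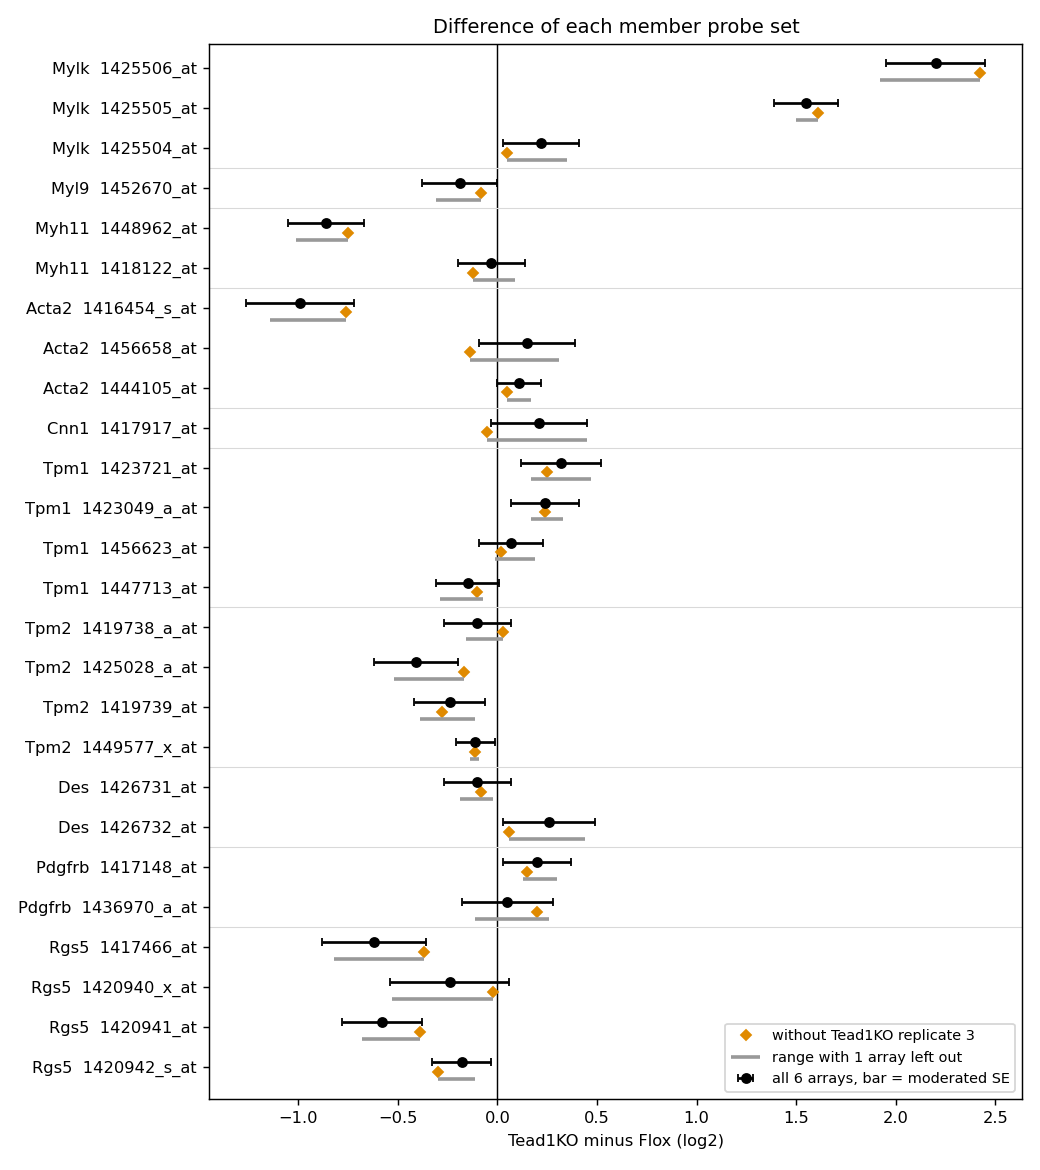
Difference of each member probe set, Tead1KO minus Flox (x axis, log2), with black points for all 6 arrays (bars are moderated SE), orange diamonds without Tead1KO replicate 3 and grey lines for the range with 1 array left out. A pair of Mylk probe sets stays above 1.4, the brightest Acta2 and the first Myh11 probe set stay below -0.7, and the Rgs5 differences are closer to 0 without Tead1KO replicate 3 in 3 of 4 probe sets.

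Over the brightest probe set of each gene, 4 members lay above 0 (Mylk, Cnn1, Tpm1 and Pdgfrb) and 6 below (Myl9, Myh11, Acta2, Tpm2, Des and Rgs5), with a median of -0.10. The sign of Cnn1 and of Tpm2 turned without Tead1KO replicate 3, and that of Tpm2 also with quantile normalization. Those of Mylk, Acta2, Myh11, Tpm1, Pdgfrb, Rgs5, Myl9 and Des were kept with any 1 array left out, and also with median centring and with quantile normalization. With the hybridization controls as a covariate, the signs of Cnn1 (-0.06) and Tpm2 (0.04) turned as well, and the others were kept. Acta2, Myh11, Rgs5 and Myl9 then differed less, by -0.67, -0.64, -0.41 and -0.04, and Mylk differed more, by 2.48.

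None of the related contractile genes passed. Of 27 other smooth muscle and contractile genes, read by 61 probe sets, 0 probe sets were higher and 0 lower by limma's test over all probe sets (4 at an unadjusted p under 0.05, all higher, where 5.18% of all probe sets had one), and the median difference was 0.01. The mean over the brightest probe sets was 6.99, 6.95 and 6.90 in Tead1KO and 6.86, 6.86 and 6.87 in Flox arrays, which did not overlap. Of these brightest probe sets, 13 of 27 lay above 0, with a median of -0.01, and 6 genes were within background. Among these genes Cald1, caldesmon, an actin-binding brake on smooth muscle myosin, had the smallest p. Its probe set 1424770_at read 7.37, 7.41 and 7.47 in Tead1KO and 6.89, 6.61 and 6.77 in Flox arrays, groups that did not overlap (difference 0.66, SE 0.16, limma adjusted p = 0.346). Its brightest probe set read 9.79, 10.51 and 9.58 in Tead1KO and 9.34, 9.41 and 9.39 in Flox arrays (0.58, adjusted p = 0.871), with Tead1KO replicate 2 the highest, as for the brightest Mylk probe set. Other Cald1 probe sets above background differed by 0.09 and 0.06, with overlapping groups. Synpo2, an actin-bundling protein of muscle, differed by 0.39 (adjusted p = 0.861) and, in other probe sets above background, by 0.44 and 0.20 with overlapping groups, and Csrp1, a LIM protein of smooth muscle, by 0.31 (adjusted p = 0.871).

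Regulators of these genes did not pass either. Of 11 genes for serum response factor, its coactivators and related regulators, read by 22 probe sets, limma called 0 in either direction (0 at an unadjusted p under 0.05), and the median difference was -0.04. Rock1, a kinase that inhibits the phosphatase opposing Mylk, read 6.27, 7.28 and 5.33 in Tead1KO and 7.33, 7.00 and 7.18 in Flox arrays (difference -0.88, SE 0.43, adjusted p = 0.871), with a wide spread among the Tead1KO arrays, and its other probe sets above background differed by -0.46 and -0.36, with overlapping groups. Fhl2 differed by 0.41 and Crip2 by 0.32, both LIM proteins of muscle (adjusted p = 0.871 for both).

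Other mural cell genes gave values on both sides of 0. Of 15 further pericyte and mural markers, read by 29 probe sets, 0 were called by limma in either direction, with a median difference of -0.07. At an unadjusted p under 0.05 there were 4, of which 3 were higher, beside 5.18% of all probe sets. Kcnj8 and Abcc9, the pore and the sulfonylurea receptor of the pericyte ATP-sensitive potassium channel, lay higher in Tead1KO. Kcnj8 read 6.81, 6.85 and 7.40 in Tead1KO and 6.27, 6.59 and 6.34 in Flox arrays (difference 0.62, adjusted p = 0.777), and Abcc9 differed by 0.53 and 0.42 above background (adjusted p = 0.87 and 0.871). Rgs4, a relative of Rgs5, lay lower, with 9.99, 10.32 and 9.43 in Tead1KO and 10.36, 10.37 and 10.66 in Flox arrays (difference -0.55, adjusted p = 0.871), and its second bright probe set differed by -0.05. The mean of these 15 markers was 6.45 to 6.61 in Tead1KO and 6.46 to 6.58 in Flox arrays, with only Tbx18 within background.

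The ligands of Pdgfrb did not pass. Of 5 genes for PDGF ligands and the sister receptor, read by 12 probe sets, 0 were called by limma in either direction, with a median difference of 0.13. At an unadjusted p under 0.05 there were 2, both higher, beside 5.18% of all probe sets. Pdgfb, the ligand by which endothelial cells attract pericytes, read 7.60, 7.30 and 7.31 in Tead1KO and 6.73, 6.95 and 7.02 in Flox arrays, which did not overlap (difference 0.50, SE 0.17, adjusted p = 0.79). Its other probe set differed by 0.12, with overlapping groups. Pdgfa differed by -0.42 (adjusted p = 0.871) at 1 probe set and by -0.18, with overlapping groups, at the other. Pdgfra, a fibroblast receptor, lay within or at the edge of background.

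Several stromal markers lay higher in Tead1KO, as Mylk did, without passing. Of 16 fibroblast and stellate cell markers, read by 34 probe sets, 0 were called by limma in either direction (6 at an unadjusted p under 0.05, all higher, beside 5.18% of all probe sets with one). In this list 23 of 34 probe sets lay above 0, beside 55.9% of all probe sets, and 7 had all Tead1KO arrays above all Flox arrays, beside 5.36% of all. The median difference was 0.08. At the brightest probe set of each gene 10 of 16 lay above 0, with a median of 0.05, so the list was mixed. The genes with the smallest p were Dcn, Dpt and Col1a2. Dcn, decorin, read 7.56, 8.44 and 7.48 in Tead1KO and 6.56, 6.79 and 6.79 in Flox arrays (difference 1.11, adjusted p = 0.344). Dpt, dermatopontin, differed by 0.60 (adjusted p = 0.513), and Col1a2, a chain of collagen I, by 0.62 (adjusted p = 0.562). A second Col1a2 probe set above background differed by 0.20, with overlapping groups. The mean of the 16 markers was 6.99, 7.10 and 6.85 in Tead1KO replicates 1 to 3 and 6.88, 6.84 and 6.76 in Flox replicates 1 to 3, and only Pdgfra was within background. With that mean as a covariate, added after the data were seen, the Mylk differences were 1.70, 1.44 and 0.50. Those of the brightest Acta2, Myh11 and Rgs5 probe sets were -1.18, -1.05 and -1.19. Other members moved too, in either direction. Cnn1 was then at 0.72, the dimmer Des probe set at 0.60, Tpm2 1425028_a_at at -0.73 and Rgs5 1420942_s_at at 0.02. The brighter pair of Mylk probe sets and the brightest of Rgs5 were then called, beside 0.613% of all probe sets.

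**Figure D4:**
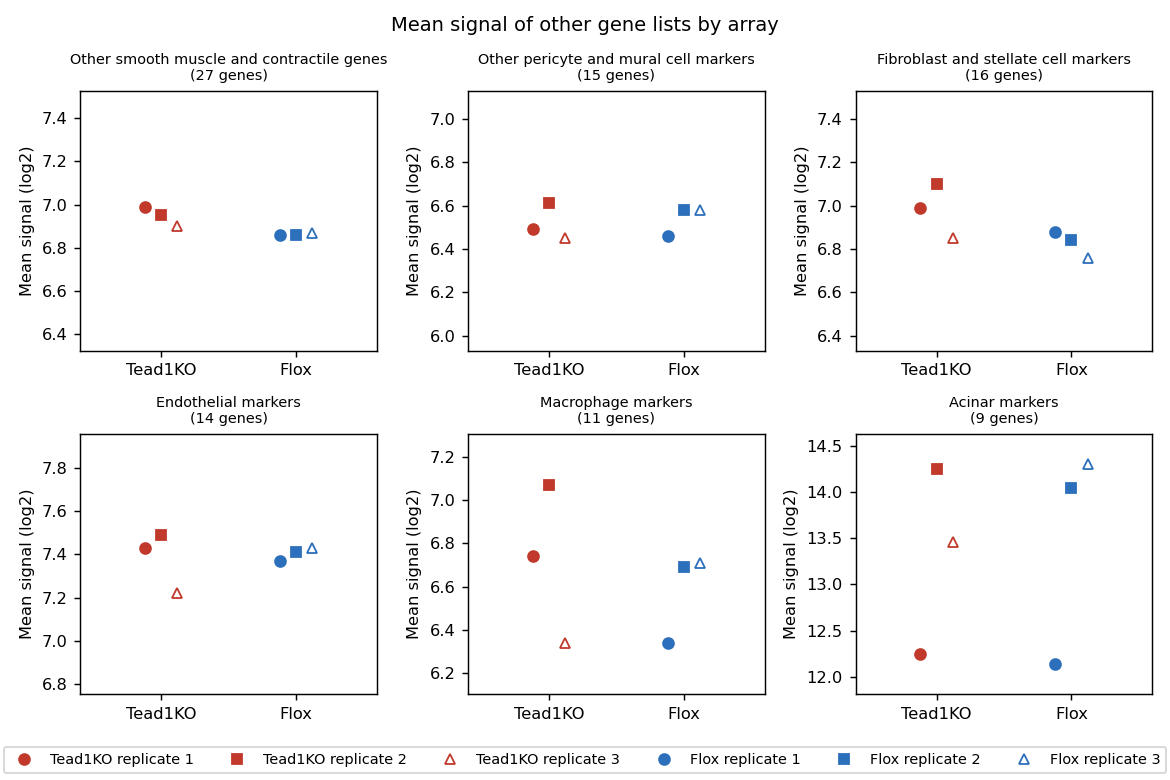
Mean log2 signal (y axis) over the brightest probe set of each gene of 6 lists, by array, Tead1KO in red left of Flox in blue, symbol by replicate; the y axes do not start at 0 and the acinar panel covers a wider range. Fibroblast markers lay at 6.85 to 7.10 in Tead1KO and 6.76 to 6.88 in Flox, and acinar markers differed more between arrays of a group than between groups.

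The mean levels of markers of the other cells of the preparation overlapped between the groups. The mean of 14 endothelial markers was 7.22 to 7.49 in Tead1KO and 7.37 to 7.43 in Flox arrays, with a median difference of 0.02 over 22 probe sets, and 0 probe sets were called by limma (0 at an unadjusted p under 0.05). The mean of 11 macrophage markers was 6.34 to 7.07 in Tead1KO and 6.34 to 6.71 in Flox arrays, and C1qa, a complement subunit of macrophages, differed by 1.08 (adjusted p = 0.819). Acinar markers differed by a median of -0.20, far less than between arrays of a group, where Prss2, a trypsinogen, read 10.27 to 13.18 in Tead1KO and 10.24 to 13.16 in Flox arrays. The mean of 7 ductal markers was 7.71 to 7.86 in Tead1KO and 7.75 to 7.94 in Flox arrays, and that of 6 Schwann and glial markers was 6.39 to 6.64 in Tead1KO and 6.29 to 6.51 in Flox arrays. The macrophage, acinar, ductal, glial and endocrine lists were read by 18, 15, 11, 18 and 10 probe sets. Limma called 0 of these (1, 0, 0, 1 and 2 at an unadjusted p under 0.05, beside 5.18% of all probe sets with one). The 2 endocrine ones were lower, Slc2a2, the glucose transporter of beta cells (-0.82, adjusted p = 0.331), and Chga, a granule protein (-0.26, adjusted p = 0.871). The part of stromal, acinar or macrophage RNA in the member values was not tested. No macrophage covariate was fitted. The fibroblast marker mean partly followed the groups, so on 6 arrays its covariate cannot separate stromal RNA from the group difference.

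Over the 6 arrays, the genes most like Mylk at its brightest probe set were Mmp2, a matrix metalloproteinase (Pearson r = 0.9989), Tph2, an enzyme of serotonin synthesis (0.9978), and Serpina1b, a protease inhibitor (0.9975). All share with Mylk the order Tead1KO replicate 2, 1, 3 above every Flox array. Tph2 (7.12 in Tead1KO and 4.05 in Flox) and Serpina1b (7.12 in Tead1KO and 4.30 in Flox) had Flox means within background, so they entered the comparison through their Tead1KO arrays and their r largely restates the group difference. Mmp2 read 7.36, 7.61 and 7.15 in Tead1KO and 6.28, 6.22 and 6.25 in Flox arrays. The genes most like the brightest Acta2 probe set were Nfix, a transcription factor (r = 0.9943), Atxn7l3 (0.9892) and Lonp1, a mitochondrial protease (0.9863). These are the highest of many correlations on only 6 arrays that share the group difference and the quality of the arrays, and 123 probe sets for Mylk and 97 for Acta2 had an r above 0.95. The same limits hold among the members, each at its brightest probe set. Acta2 had an r of 0.92 with Myh11, 0.84 with Myl9, 0.73 with Tpm2, 0.67 with Rgs5 and 0.17 with Des. Its r was -0.60 with Cnn1, -0.68 with Tpm1 and with Pdgfrb, and -0.73 with Mylk. Mylk had 0.48 with Tpm1, 0.45 with Pdgfrb and 0.09 with Cnn1. Its other values were -0.16 (Tpm2), -0.39 (Myl9), -0.43 (Des), -0.52 (Rgs5) and -0.80 (Myh11).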

How the data were processed

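Each of the 6 islet samples was measured on 1 Affymetrix mouse expression array. The authors deposited log2 probe set signals. The submitters' processing notes name Affymetrix Expression Console, and its version and settings (background correction, normalization, summarisation) are not stated there. That the scale is log2 was inferred from the range, 2.75 to 15.71. The table held 45101 probe sets, 64 of them controls that were left out. Of the other 45037, 34945 had 1 gene symbol in the platform annotation, 932 several and 9160 were unnamed here. All 10 members matched a RefSeq gene by identifier.

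Every non-control probe set was fitted with limma 3.58.1 (R 4.3.3, lmFit, eBayes with trend=TRUE, no covariate, no filter), with Benjamini-Hochberg adjustment over all 45037 and a threshold of 0.05. SE is the moderated standard error. The code of the fit was tried on simulated data with independent noise. Those data held no effects shared over an array, such as that of Tead1KO replicate 3, so this does not test the calls made here. For arrays, their number limits the precision. Listed genes were taken at all single-symbol probe sets, and 127 of 138 were measured. The others are not reported here. Named were the members, Tead1, up to 3 genes of each list by smallest unadjusted p, and the 3 genes most correlated with Mylk and with Acta2 among probe sets above the median signal. The text leaves out some of the listed genes so named. The members and lists were chosen with earlier results of these data known. Alternatives were other scalings, a filter on dim probe sets, other variance priors, other choices of probe set, a replicate block, the hybridization controls as a covariate and each array left out. The acinar and fibroblast marker covariates were added after the data were seen.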

Additional observations from a re-analysis of the deposited data

How the results depend on the processing

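Of 417 values of single member probe sets under 17 alternatives, 403 moved by less than 1 SD between replicates, 14 moved by more and 0 of the called ones changed sign. Part of this was fixed in advance. Filters or choices of probe sets, other variance priors and the balanced replicate block leave a difference unchanged. Most of the 14, among them every Mylk probe set, moved with the fibroblast covariate. The count of changed probe sets, 81, was 143 with quantile normalization, 42 with median centring, 268 with the hybridization controls, 24 with the acinar markers and 276 with the fibroblast markers as a covariate, and 4 to 239 with 1 array left out. The count of called member probe sets, 2, was 1 with median centring, 1 with the brightest probe set per gene (only 1 Mylk probe set then remains in the table), 0 with the acinar covariate and 0 to 2 with 1 array left out. With median centring the Mylk difference of 2.14 no longer passed and that of 1.48 did. The median member difference, -0.06, was -0.13 with median centring, 0.06 without probe sets of the _x_at and _s_at kind, and -0.08 to -0.01 with 1 array left out. Of the listed genes, 0 probe sets were called, and 2 with the hybridization controls (Dcn and C1qa), 2 with the fibroblast covariate (Rock1 and the glucose transporter Slc2a2) and 0 to 1 with 1 array left out (Slc2a2, without Tead1KO replicate 2). The causes were not tested. Whether the replicate numbers pair the arrays cannot be told from these values. Deviations of same-numbered arrays correlated at 0.0635, 0.351 and -0.195, and those of differently numbered arrays at -0.423 to 0.354. With the replicate block 96 probe sets changed, 2 of them members and 0 of the listed genes. Tead1 differed by -0.55 and -0.27 with median centring. Probe sets within background (5 of 26 in both groups) limit what can be seen of Acta2, Pdgfrb, Tpm2 and Rgs5 beyond their brighter probe sets.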
